A study of Mus musculus with 109 samples.

Results

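Siglecf, Siglec1, Siglece, Cd22 and Cd33 are 5 genes of the mouse Siglec family, lectins of the cell surface that bind sialic acid. They are 5 of the 37315 genes in the count table and were found by their Ensembl identifiers. They were chosen by their measured differences, as Siglecf was among the leading genes after IL1A and Cd22 among those after TNF, so the members' IL1A and TNF differences at day 2 in batch 1 are given as a description without a test. The tests below are on the combined cytokines, on Sarm1-/- mice, on later days, on PBS retinas and on sex.

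The libraries came from single retinas of 64 mice, with both eyes of 45 mice in the series. Eyes received an intravitreal injection of recombinant IL1A (0.1 µg/µL), TNF (0.05 µg/µL), both cytokines, or phosphate buffered saline (PBS) as the vehicle, in 2 µL. Mice were 2 to 4 months old by the series description, while the study's methods allow up to 6 months. Wild-type (WT) C57BL/6J retinas of batch 1 at day 2 comprised 31 with PBS, 8 with TNF, 9 with IL1A and 10 with IL1A+TNF. WT retinas of batch 1 at day 14 comprised 7 with PBS and 6 with TNF, and at day 35 there were 6 with PBS and 9 with TNF. Batch 2 held day 2 retinas only, which were 5 WT with PBS, 6 WT with IL1A+TNF, 6 Sarm1-/- with PBS and 6 Sarm1-/- with IL1A+TNF. Every PBS retina came from an injected eye, and no uninjected retina was analysed here. Sarm1-/- mice (labelled Sarm.KO) lack the gene in all cells, so the loss is not restricted to neurons or glia.

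Siglecs read the sialic acids at the ends of glycans, which mark the body's own cells. Most carry inhibitory motifs in their cytoplasmic tails that recruit the phosphatases encoded by Ptpn6 and Ptpn11 and so damp activation of immune cells. Siglece (Siglec-E) and Cd33 are receptors of myeloid cells, and Siglec1 (sialoadhesin, CD169) is an adhesion receptor of macrophages without such motifs. Siglecf (Siglec-F) is known from eosinophils, alveolar macrophages and some neutrophils of inflamed tissue. Cd22 is a receptor of B cells that is also known from microglia, the resident macrophages of neural tissue. Siglech (Siglec-H) is a marker of microglia and plasmacytoid dendritic cells and signals through the adaptor encoded by Tyrobp.

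In the GENCODE annotation of GRCm38, Siglecf lies at chr7:43351341-43359531 on the plus strand. Siglece (chr7:43651070-43660161), Cd33 (chr7:43524216-43544428) and Cd22 (chr7:30865402-30880342) lie on the minus strand of the same chromosome, and Siglec1 lies at chr2:131069220-131086765 on the minus strand. The exons of Cd22 overlap 479 bp of the antisense gene Gm29439, which is not in the count table, and the strand setting of the counting was not given in the sources used here. The 250 bases before the RefSeq start of the 4 members matched in the RefSeq promoter table are printed because the members rose together, with matches to the letters GAGGAAG (or its reverse complement), the core bound by the myeloid factor PU.1, in capitals. The sequences are from RefSeq on GRCm38.p6, read 5′ to 3′ on the strand of the gene, and the RefSeq starts of Cd22 and Cd33 lie inside the GENCODE gene.
Siglecf, chr7:43351091-43351340, plus strand: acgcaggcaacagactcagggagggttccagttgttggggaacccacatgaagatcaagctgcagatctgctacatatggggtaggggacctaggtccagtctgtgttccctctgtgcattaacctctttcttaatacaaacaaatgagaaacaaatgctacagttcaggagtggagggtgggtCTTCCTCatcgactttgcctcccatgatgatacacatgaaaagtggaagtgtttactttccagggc
Siglece, chr7:43660162-43660411, minus strand: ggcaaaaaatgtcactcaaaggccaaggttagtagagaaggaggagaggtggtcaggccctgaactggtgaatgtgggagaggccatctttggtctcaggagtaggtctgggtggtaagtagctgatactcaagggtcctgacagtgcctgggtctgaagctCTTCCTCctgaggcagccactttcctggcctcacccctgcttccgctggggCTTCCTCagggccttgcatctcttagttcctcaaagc
Cd33, chr7:43533172-43533421, minus strand: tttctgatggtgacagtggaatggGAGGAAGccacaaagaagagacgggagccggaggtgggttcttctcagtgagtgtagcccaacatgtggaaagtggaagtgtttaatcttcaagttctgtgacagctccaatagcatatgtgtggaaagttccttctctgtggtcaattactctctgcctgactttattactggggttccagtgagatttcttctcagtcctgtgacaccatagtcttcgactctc
Cd22, chr7:30879029-30879278, minus strand: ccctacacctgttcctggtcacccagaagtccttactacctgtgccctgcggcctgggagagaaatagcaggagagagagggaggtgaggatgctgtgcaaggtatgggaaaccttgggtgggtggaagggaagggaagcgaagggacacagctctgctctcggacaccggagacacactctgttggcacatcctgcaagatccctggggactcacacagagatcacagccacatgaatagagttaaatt
The Siglecf window held 1 match, the Siglece window 2, the Cd33 window 1 and the Cd22 window none. Of all 32817 RefSeq promoter windows of the same length, 10.6% held these letters. The NF-kB consensus was found in 1.41% of windows and the interferon-stimulated response element in 2.97%. Neither was found in the 4 windows printed, nor in that of Siglech. Both strands were searched, and a match is a run of letters, not a shown binding site.

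Library totals ranged from 30014757 to 79064488 counts. In batch 2, Sarm1 was at 37.1 to 52.9 CPM (read counts scaled to library size) in Sarm1-/- PBS retinas and at 104.8 to 124.3 CPM in WT PBS retinas, and all 12 Sarm1-/- retinas were below every WT retina of that batch. The libraries held the rod gene Pde6b, at a mean of 1985 CPM over all retinas. Levels below are CPM scaled by TMM, differences are log2 fold changes ± SE from limma, and a gene is called at an adjusted p (FDR) under 0.05 over all genes tested. In whole retina, fewer cells of a type and less RNA per cell cannot be told apart.

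After IL1A+TNF all 5 members were higher in WT retinas at day 2, in both batches. In batch 1, which shares its PBS retinas with the comparisons that chose the members, 24.9% of the 19548 genes tested were called higher. In batch 2, whose retinas played no part in the choice, 13.3% of 19668 genes were called higher. The retinas of a group came from separate mice within each of these groups. How many of all genes did not overlap between these groups was not counted, so a lack of overlap below only describes the genes named.

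Siglecf showed the largest difference of the 5 members in either batch. In batch 1 it was at 0.0829 to 4.19 CPM (median 0.730) in 31 PBS retinas and at 10.4 to 34.5 CPM (median 20.3) in 10 IL1A+TNF retinas. The groups did not overlap, the ratio of medians was 27.8, and the log2 fold change was 4.20 ± 0.27 (FDR = 4.336e-19). In batch 2 the 5 PBS retinas were at 1.27, 0.514, 0.328, 0.663 and 0.908 CPM and the 6 IL1A+TNF retinas at 19.2 to 59.1 CPM (median 30.6). These groups did not overlap either, with a log2 fold change of 5.38 ± 0.82 (FDR = 0.0001179).

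Siglece and Cd33, both receptors of myeloid cells, rose less than Siglecf from higher starting levels. Siglece was at 1.05 to 3.81 CPM (median 2.46) after PBS and at 5.94 to 20.2 CPM (median 7.93) after IL1A+TNF in batch 1, a log2 fold change of 1.92 ± 0.14 (FDR = 2.099e-17). In batch 2 Siglece was at 2.69, 2.13, 2.30, 2.41 and 2.96 CPM after PBS and at 7.88 to 22.5 CPM (median 12) after IL1A+TNF, a difference of 2.21 ± 0.40 (FDR = 0.0005272). None of the Siglece groups overlapped. Cd33 was at 1.09 to 6.94 CPM (median 3.0) after PBS and at 9.72 to 38.4 CPM (median 15.2) after IL1A+TNF in batch 1, with a log2 fold change of 2.45 ± 0.18 (FDR = 2.099e-17). In batch 2 Cd33 was at 3.86, 2.98, 2.04, 3.89 and 2.47 CPM after PBS and at 17.9 to 36.6 CPM (median 23.5) after IL1A+TNF, a difference of 2.91 ± 0.47 (FDR = 0.0002047). The Cd33 groups did not overlap in either batch.

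Cd22 was the lowest of the members in PBS retinas of day 2. In batch 1 it was at 0.0474 to 0.616 CPM (median 0.209) after PBS and at 0.739 to 1.93 CPM (median 1.47) after IL1A+TNF, and the log2 fold change was 2.56 ± 0.24 (FDR = 7.458e-14). In batch 2 the PBS retinas were at 0.328, 0.443, 0.188, 0.265 and 0.193 CPM and the IL1A+TNF retinas at 1.06 to 2.00 CPM (median 1.56), with a difference of 2.41 ± 0.32 (FDR = 2.92e-05). All 10 and all 6 treated retinas were above the highest PBS retina of their batch.

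Siglec1, the macrophage adhesion receptor, showed the smallest difference and the most overlap. In batch 1 it was at 0.569 to 4.17 CPM (median 1.36) after PBS and at 1.78 to 5.32 CPM (median 4.18) after IL1A+TNF, so that 5 of 10 treated retinas were above the highest PBS retina. Its log2 fold change was 1.48 ± 0.23 (FDR = 1.962e-07). In batch 2 the PBS retinas were at 2.72, 1.17, 1.52, 1.5 and 1.31 CPM and the IL1A+TNF retinas at 3.43 to 6.07 CPM (median 4.01). There the Siglec1 groups did not overlap, with a difference of 1.48 ± 0.28 (FDR = 0.0007928).

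**Figure D1:**
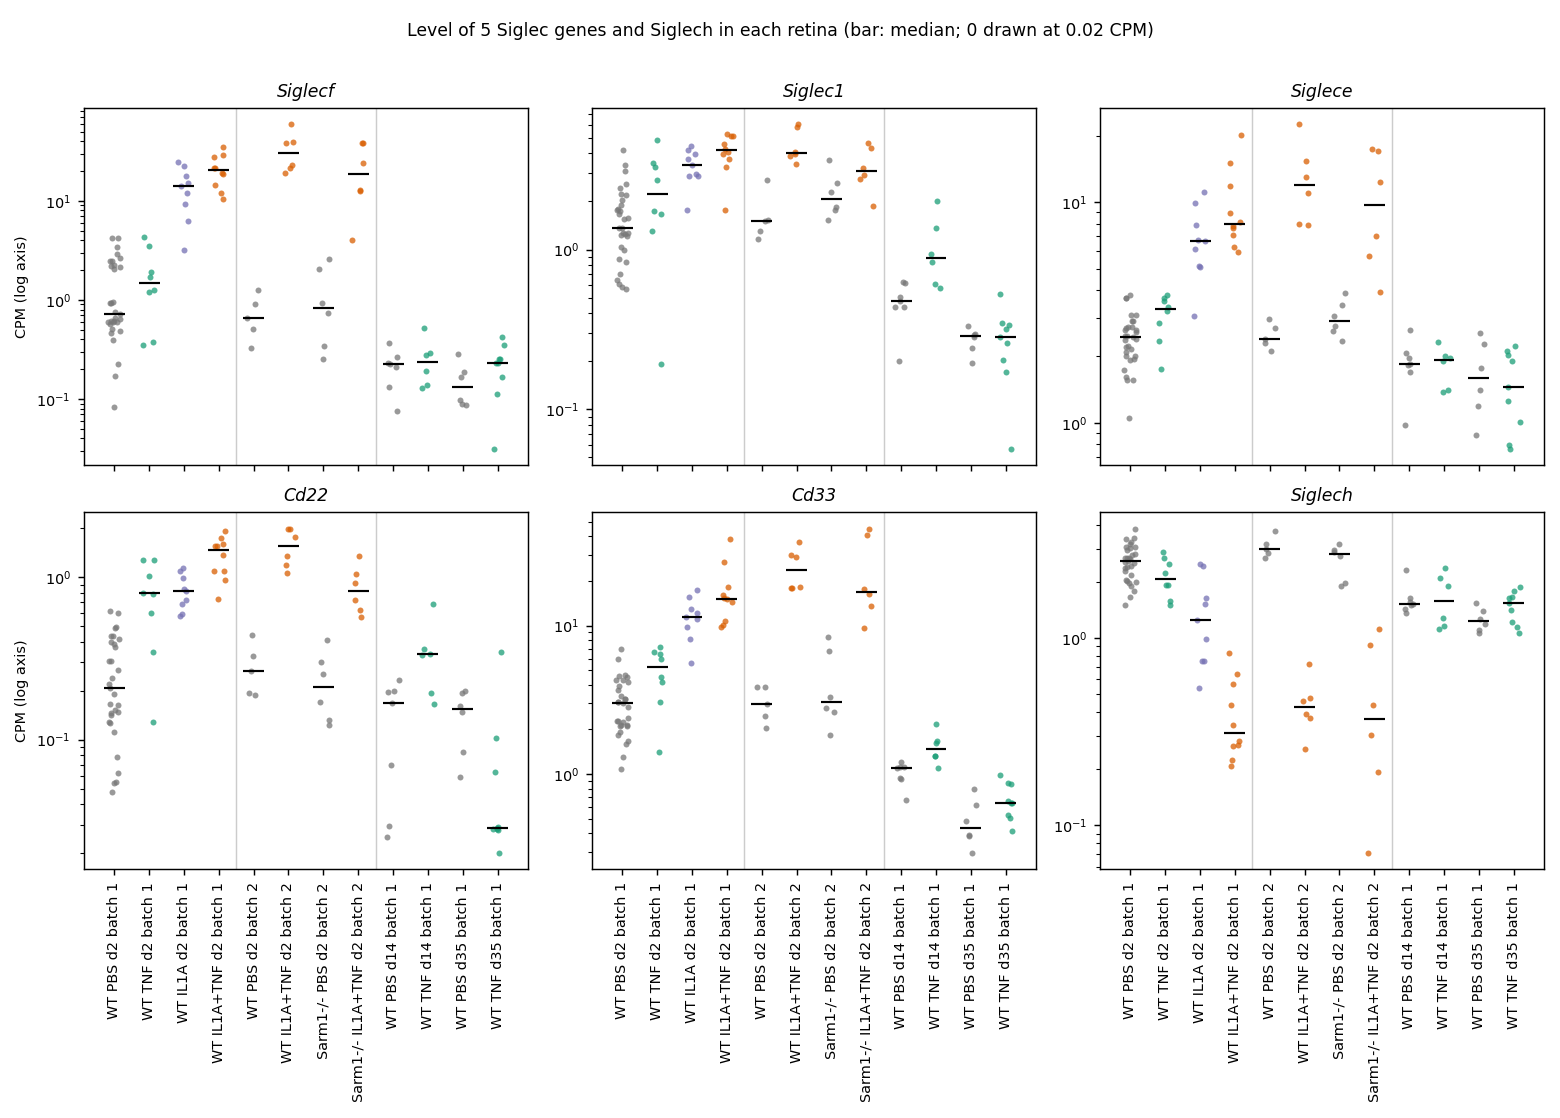
Each point is a retina and each bar a group median, with CPM on log axes that differ between panels, for the 5 members and Siglech in the 12 groups (0 drawn at 0.02 CPM). Siglecf in IL1A+TNF retinas of WT mice sits between 10.4 and 59.1 CPM, above every PBS retina, while Siglech moves the opposite way.

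Per kilobase of exon, the order of the members changed with the cytokines. In PBS retinas of batch 1 the median level was 1.33 CPM per kb for Siglece, 0.386 for Cd33, 0.262 for Siglecf, 0.190 for Siglec1 and 0.0415 for Cd22. After IL1A+TNF Siglecf was first at 7.28 CPM per kb, before Siglece at 4.29, Cd33 at 1.95, Siglec1 at 0.586 and Cd22 at 0.292.

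The rest of the family did not move as one. Siglech, the microglial Siglec, fell: it was at 1.49 to 3.84 CPM (median 2.57) after PBS and at 0.208 to 0.826 CPM (median 0.311) after IL1A+TNF in batch 1, a log2 fold change of -2.72 ± 0.24 (FDR = 1.587e-14). In batch 2 Siglech differed by -2.81 ± 0.38 (FDR = 3.345e-05). All 10 and all 6 treated retinas were below the lowest PBS retina of their batch. Siglecg, an inhibitory Siglec of B cells, rose by 3.0 ± 0.31 (FDR = 2.967e-12) in batch 1, from a median of 0.0625 CPM to one of 0.426 CPM, and by 3.21 ± 0.67 (FDR = 0.001953) in batch 2. Mag, the Siglec of myelin, had a log2 fold change of -0.12 (FDR = 0.7028) in batch 1, and Siglec15 was too low to be tested.

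In mice with a PBS eye and an IL1A+TNF eye, the treated eye was the higher one for every member in 8 of 8 WT mice of batch 1 and in 5 of 5 of batch 2. The median within-mouse difference in log2 CPM for Siglecf was 4.35 in batch 1 and 4.92 in batch 2. For Siglec1 it was 1.91 and 1.35. Siglech was lower in the treated eye of all 13 mice.

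**Figure D2:**
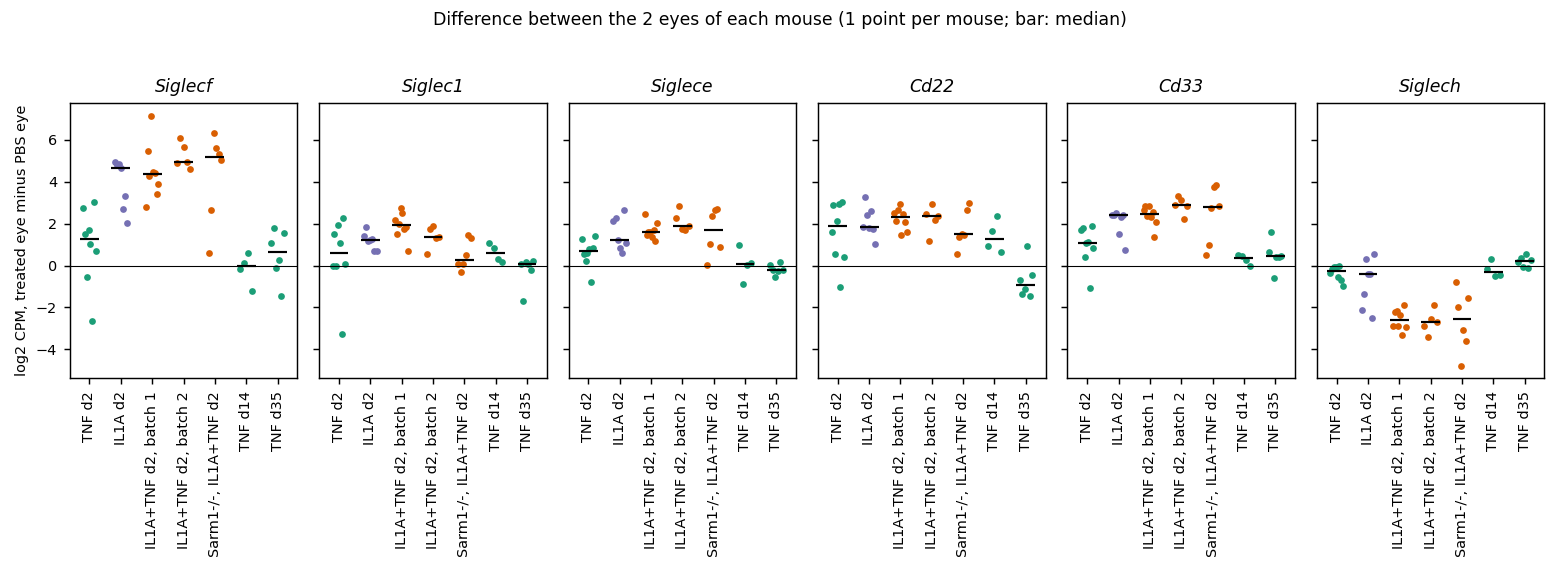
Each point is 1 mouse and gives the log2 CPM of its treated eye minus that of its PBS eye, with a bar at the median, by treatment, day and genotype. After IL1A+TNF every WT mouse lies above 0 for the 5 members and below 0 for Siglech, and after TNF alone Siglecf lies below 0 in 2 of 8 mice at day 2.

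Most genes of a list for Siglec signalling were higher as well, and whether they act with Siglecs in these retinas was not tested. Of 7 Siglec signalling genes, 6 were higher after IL1A+TNF in batch 1 and 6 in batch 2, beside 24.9% and 13.3% of all genes tested. Their median log2 fold changes were 1.68 and 2.05 against -0.023 and -0.0186 over all genes. Ptpn6, the phosphatase recruited by the inhibitory motifs, differed by 2.61 ± 0.18 (FDR = 7.251e-18) in batch 1. Inpp5d, a lipid phosphatase, differed by 1.68 ± 0.11 (FDR = 4.274e-19), and Lyn, the kinase that phosphorylates the motifs, by 1.68 ± 0.12 (FDR = 7.251e-18). Ptpn11, which is made by most cells, was the member of this list that was not called.

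Genes that make, attach and remove sialic acid were called in both directions in batch 1, where 4874 of all 19548 genes tested were higher and 4978 lower. Of 6 synthesis genes 1 was higher and 2 were lower (median log2 fold change -0.0784), and of 19 sialyltransferases tested 3 were higher and 7 lower (median -0.0431). The 3 sialyltransferases with the smallest FDR among those lower were St6gal2, at -0.27 ± 0.04 (FDR = 7.463e-09), St6galnac2, at -0.34 ± 0.06 (FDR = 6.883e-07), and St6galnac3, at -0.60 ± 0.11 (FDR = 1.095e-05). Of 2 sialidases tested 1 was higher. In batch 2 none of 6 synthesis genes was called, and of 19 sialyltransferases 3 were higher and none lower, beside 2625 higher and 1485 lower of all 19668 genes. In Sarm1-/- retinas 5 of 19 sialyltransferases were higher and 9 lower (median -0.214), beside 4289 higher and 4479 lower of 20154 genes. After IL1A+TNF, 9 of 19 were lower in Sarm1-/- than in WT retinas and none higher (median -0.284), beside 2174 lower and 814 higher of all genes. The calls on St6gal2 and St6galnac3 there were lost in batch 2 alone (FDR = 0.4864 and 0.2066 by limma), where 129 of all genes were called. Both were also lost without Sarm1-/- IL1A+TNF replicate 4 or replicate 5. St6gal2 was not called with DESeq2 (FDR = 0.2204) or edgeR (FDR = 0.283) either.

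Markers of other cells moved with the members, and their part in the members' differences was not tested. The summed level of 10 neutrophil genes was 3.07 to 130.6 CPM (median 16.2) after PBS and 119.3 to 751.8 CPM (median 183.0) after IL1A+TNF in batch 1, and 6 of 9 tested were higher, among them Csf3r (3.79 ± 0.29, FDR = 1.87e-16) and S100a9 (3.59 ± 0.39, FDR = 1.204e-11). The sum of 8 macrophage and monocyte genes was 13.1 to 39.5 CPM (median 23.7) and 62.7 to 104.9 CPM (median 76.3), with 7 of 8 higher, including Ccr2 (3.32 ± 0.46, FDR = 1.71e-08) but not Lyve1 (-0.06 ± 0.07, FDR = 0.4802). The sum of 10 microglia genes was 70.5 to 124.0 CPM (median 95.8) and 120.9 to 194.8 CPM (median 163.0), with 6 higher, Csf1r among them, and 2 lower. Of all 19548 genes tested in batch 1, 4874 (24.9%) were higher and 4978 lower. In batch 2 the neutrophil sum was 6.64 to 22.2 CPM (median 11.5) after PBS and 148.0 to 675.5 CPM (median 298.1) after IL1A+TNF.

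Genes of eosinophils, known for Siglecf, were at or near 0, and genes of B cells, known for Cd22, were at a few CPM. The summed level of 8 eosinophil genes was at most 1.59 CPM in any retina, with group medians of 0.163 to 0.386 CPM, and none was high enough to be tested. Epx and Ear2 of that list averaged 0.0983 and 0.0520 CPM over all retinas. The 8 B cell genes summed to 2.65 to 6.26 CPM (median 4.31) after PBS and 2.72 to 6.75 CPM (median 5.14) after IL1A+TNF in batch 1, and no gene of the list was at 0 throughout. Of 5 B cell genes tested, Ighm was higher (0.61 ± 0.18, FDR = 0.003485) and Fcer2a lower (-0.77 ± 0.16, FDR = 3.635e-05). These counts were near the share over all genes, of which 4874 of 19548 were higher and 4978 lower. In batch 2 the B cell sum had medians of 4.27 and 5.58 CPM. There 2 of 5 genes were higher and 1 lower, beside 2625 higher and 1485 lower of all 19668 genes. With IL1A alone the B cell sum had a median of 6.21 CPM, with 2 of 5 genes higher, beside 12% of all genes. In Sarm1-/- retinas given IL1A+TNF 1 of 5 was lower and none higher, beside 4479 lower and 4289 higher of all 20154 genes. The part of B cell markers in the Cd22 differences was not tested.

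Of the remaining lists in batch 1, 1 of 3 T cell genes tested was higher (Lck, 0.36 ± 0.14, FDR = 0.03021), as was 1 of 5 dendritic cell genes, and none of 4 genes of myelinating glia was called. For retinal neurons and Müller glia, 7 of 8 genes were lower, including Pde6b (-0.59 ± 0.06, FDR = 5.78e-13). Of all 19548 genes tested, 4874 (24.9%) were higher and 4978 lower, so the T cell and dendritic cell counts were near the share over all genes.

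With IL1A alone each member had a lower median than with both cytokines. The ratio of medians, both cytokines over IL1A, ran from 1.18 for Siglece to 1.80 for Cd22. These values are a description since these retinas chose the genes. Siglecf was at 3.21 to 24.7 CPM (median 14.1) in 9 IL1A retinas, a log2 difference of 3.72 ± 0.28 from PBS. The differences were 1.18 ± 0.25 for Siglec1, 1.51 ± 0.15 for Siglece, 1.91 ± 0.26 for Cd22 and 2.00 ± 0.19 for Cd33. For Siglecf, Siglece and Cd33, 8 of 9 IL1A retinas were above the highest PBS retina, for Cd22 it was 7 and for Siglec1 it was 2. Across all genes 12% were called higher in this comparison. Siglech was at 0.542 to 2.48 CPM (median 1.24), between its levels with PBS and with both cytokines. Beside these values, the median sums with IL1A were 155.3 CPM for the neutrophil genes, 72.2 CPM for the macrophage and monocyte genes and 160.7 CPM for the microglia genes, and their part was not tested.

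With TNF alone the largest difference among the members was that of Cd22, also a description. Cd22 was at 0.128 to 1.27 CPM (median 0.796) in 8 TNF retinas, a log2 difference of 1.62 ± 0.29 from PBS, where 0.614% of all genes were called higher. The median of Cd22 with IL1A was 0.818 CPM, and the ranges overlapped. Siglecf was at 0.353 to 4.36 CPM (median 1.48) after TNF, and differed from PBS by 0.54 ± 0.45. The differences were 0.39 ± 0.30 for Siglec1, 0.37 ± 0.20 for Siglece and 0.67 ± 0.25 for Cd33. For Cd22, 5 of 8 TNF retinas were above the highest PBS retina, and for each other member 1 was. The median sums with TNF were 21.2 CPM for the neutrophil genes, 51.9 CPM for the macrophage and monocyte genes and 137.2 CPM for the microglia genes, and their part was not tested either.

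TNF replicate 6 of day 2 was the lowest of its group for every member. It had 0.353 CPM of Siglecf, 0.192 of Siglec1, 1.76 of Siglece, 0.128 of Cd22 and 1.41 of Cd33. Ccr2 was at 0.0641 CPM there and at 7.88 to 46.5 CPM in the other 7 TNF retinas. Its median correlation with the others over genes was 0.9735, against 0.9801 to 0.9868. Without it the TNF difference was 0.95 for Siglecf, 0.80 for Siglec1, 0.50 for Siglece, 1.93 for Cd22 and 0.93 for Cd33.

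Adding TNF to IL1A gave each member a further difference smaller than that of IL1A from PBS, and the largest was for Cd22. These differences share the retinas used for the choice. IL1A+TNF minus IL1A was 0.48 ± 0.22 for Siglecf, 0.29 ± 0.27 for Siglec1, 0.41 ± 0.16 for Siglece, 0.64 ± 0.26 for Cd22 and 0.45 ± 0.20 for Cd33. For Siglech it was -1.73 ± 0.28.

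In Sarm1-/- retinas 4 of the 5 members were higher after IL1A+TNF, where 21.3% of 20154 genes were called higher. Siglecf was at 0.255 to 2.61 CPM (median 0.838) in 6 PBS retinas and at 4.03 to 38.6 CPM (median 18.5) in 6 IL1A+TNF retinas, a log2 fold change of 4.56 ± 0.56 (FDR = 6.217e-09). Cd33 went from a median of 3.06 CPM to one of 16.9 CPM (2.50 ± 0.32, FDR = 1.817e-08) and Siglece from 2.89 to 9.70 CPM (1.68 ± 0.27, FDR = 9.769e-07). Cd22 went from a median of 0.212 CPM to one of 0.827 CPM (1.91 ± 0.37, FDR = 2.436e-05). None of these 4 genes overlapped between the groups, and how many of all genes did not overlap was not counted. For Siglece the gap was narrow, with at most 3.88 CPM after PBS and at least 3.91 CPM after IL1A+TNF. The treated eye was higher in 6 of 6 mice for each of the 4. The same mouse had the smallest log2 difference for all 4, at 0.62 for Siglecf, 0.0103 for Siglece, 0.55 for Cd22 and 0.51 for Cd33. Beside these values, the median sum went from 18.1 to 274.7 CPM for the neutrophil genes, from 28.3 to 77.7 CPM for the macrophage and monocyte genes and from 95.3 to 137.1 CPM for the microglia genes, and their part was not tested.

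Siglec1 was not called in Sarm1-/- retinas. It was at 1.54 to 3.65 CPM (median 2.07) after PBS and at 1.88 to 4.61 CPM (median 3.09) after IL1A+TNF, a difference of 0.53 ± 0.33 (FDR = 0.1941), with 2 of 6 treated retinas above the highest PBS retina. The genotype by treatment term, which tests whether the response differed from that of WT, was -0.95 ± 0.38 for Siglec1 (p = 0.01477 and FDR = 0.1058 by limma). For the other members that term ranged from -0.61 ± 0.42 for Cd22 to 0.13 ± 0.61 for Siglecf, and none of the 5 was called, against 8.75% of all genes. The term used WT retinas of both batches, and for Siglecf its sign was not stable, from -0.949 to 0.565 over 41 alternatives. Siglech fell by 2.71 ± 0.31 in Sarm1-/- retinas (FDR = 1.164e-09).

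Between the genotypes themselves, Cd22 was the member called. After IL1A+TNF it was at 0.566 to 1.36 CPM (median 0.827) in Sarm1-/- and at 1.06 to 2.00 CPM (median 1.56) in WT retinas of batch 2. Of 6 Sarm1-/- retinas 5 were below the lowest WT retina of batch 2. The WT retinas of batch 1, which the fit also used, were at 0.739 to 1.93 CPM. Over both batches, with a batch term, the difference was -0.86 ± 0.28 (FDR = 0.02667 by limma), in a comparison where 14.8% of genes were called. That call was lost in batch 2 alone (-0.83, FDR = 0.114), with DESeq2 (FDR = 0.0858) and with edgeR (FDR = 0.1309). It was also lost without Sarm1-/- IL1A+TNF replicate 3 (-0.73, FDR = 0.0757), replicate 4 (-0.89, FDR = 0.103) or replicate 5 (-0.92, FDR = 0.0751). Without WT IL1A+TNF batch 2 replicate 5, Siglecf was called too (-0.88, FDR = 0.0375). The other members differed by -0.12 to -0.64, with the smallest FDR for Siglecf (FDR = 0.1398). In the same comparison 6 of 10 microglia genes were lower (median -0.448) and none of 9 neutrophil genes was called. In PBS retinas none of the members was called between the genotypes (Siglec1 had the smallest FDR, 0.9886), against 0.0397% of all genes.

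**Figure D3:**
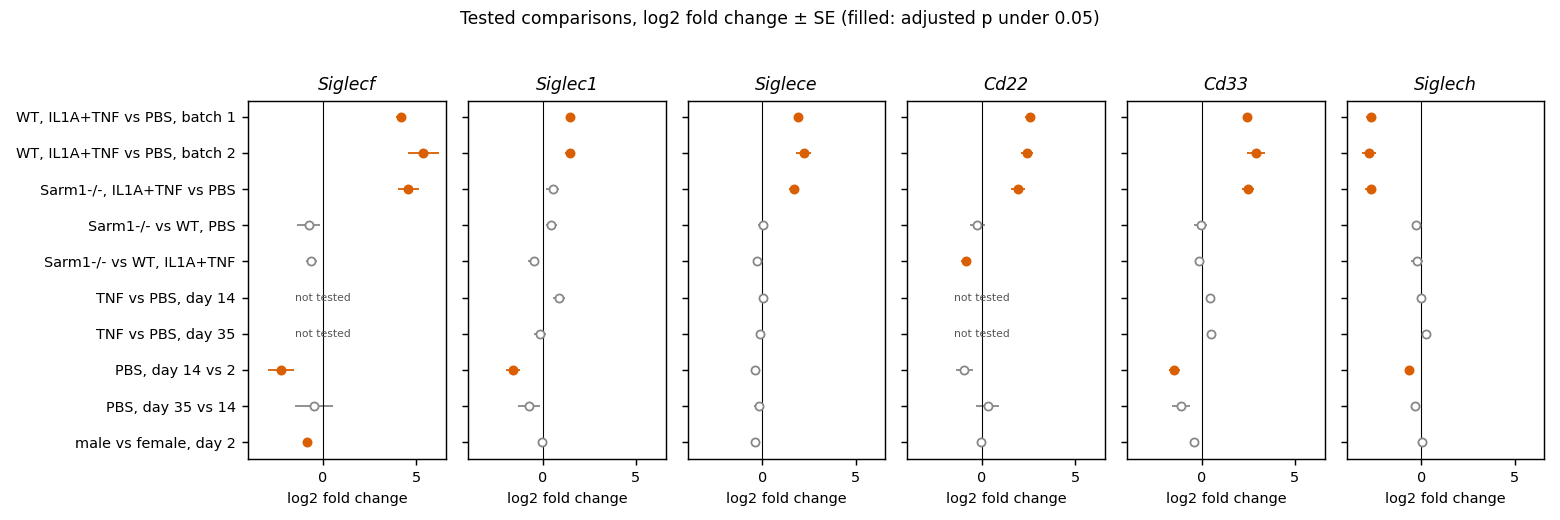
Log2 fold change ± SE of the 5 members and Siglech in the tested comparisons, with filled points for an adjusted p under 0.05 by limma. The 3 IL1A+TNF comparisons lie to the right of 0 for every member, with Siglec1 in Sarm1-/- retinas an open point at 0.53.

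At days 14 and 35 no member was called between TNF and PBS, and neither was any of the 18023 and 17821 genes tested (0% at both days). At an unadjusted p under 0.05 there were 838 genes at day 14 and 871 at day 35. Siglec1 was at 0.201 to 0.625 CPM (median 0.479) in 7 PBS retinas and at 0.574 to 2.03 CPM (median 0.888) in 6 TNF retinas at day 14, with a difference of 0.89 ± 0.31 (FDR = 0.8876). Cd33 differed by 0.47 ± 0.17 at day 14 (FDR = 0.8876) and by 0.50 ± 0.23 at day 35 (FDR = 0.8893), and Siglece by 0.04 ± 0.20 and -0.11 ± 0.13. Siglecf and Cd22 were below the count filter at both days.

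Cd22 was at 0.0252 to 0.234 CPM (median 0.168) after PBS and at 0.166 to 0.684 CPM (median 0.335) after TNF at day 14, and was higher in the TNF eye of 4 of 4 mice. At day 35 it was at 0.0587 to 0.198 CPM (median 0.154) after PBS and at 0 to 0.347 CPM (median 0.0287) after TNF, and was higher in the TNF eye of 1 of 6 mice. The groups overlapped at both days. Without the filter the differences were 1.44 (FDR = 0.9415) and -1.35 (FDR = 0.9068).

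In PBS retinas 3 members were lower at day 14 than at day 2, where 10.5% of 19372 genes were called lower. Siglecf went from a median of 0.730 CPM to 0.225 CPM (0.0756 to 0.366 in 7 retinas), a difference of -2.28 ± 0.70 (FDR = 0.01644). Siglec1 went from 1.36 to 0.479 CPM (-1.61 ± 0.39, FDR = 0.002277) and Cd33 from 3.0 to 1.11 CPM (-1.47 ± 0.30, FDR = 0.0004642). Siglece differed by -0.40 ± 0.18 (FDR = 0.1305) and Cd22 by -0.95 ± 0.45 (FDR = 0.1406), and every member's range at day 14 overlapped that at day 2. Siglech was lower too, by -0.65 ± 0.14 (FDR = 0.0009266), unlike after the cytokines, where it went against the members. The sum of the neutrophil genes had a median of 16.2 CPM at day 2 and 2.07 CPM at day 14, and that of the microglia genes 95.8 and 58.3 CPM, with 9 of 10 microglia genes lower. From day 14 to day 35 none of the members was called lower, against 1.95% of genes. Cd33 differed by -1.11 ± 0.50 (FDR = 0.2011), and DESeq2 called it (FDR = 0.0245).

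Ordered by median, Siglecf was highest in WT IL1A+TNF retinas of batch 2 (30.6 CPM), then of batch 1 (20.3), in Sarm1-/- IL1A+TNF retinas (18.5) and in IL1A retinas (14.1), and each of these ranges overlapped the next. TNF retinas of day 2 followed at 1.48 CPM, then the PBS groups of day 2 at 0.663 to 0.838 CPM, and all groups of days 14 and 35 at 0.132 to 0.234 CPM. The order for Cd33 was the same at the top, from 23.5 CPM in batch 2 through 16.9 CPM in Sarm1-/- and 15.2 CPM in batch 1 to 11.5 CPM with IL1A, except for the exchange of the 2 groups in the middle, whose ranges overlapped. Siglece followed the order of Cd33, from 12 CPM in batch 2 through 9.70 and 7.93 CPM to 6.70 CPM with IL1A. For Cd22 the Sarm1-/- IL1A+TNF group (0.827 CPM), the IL1A group (0.818) and the TNF group (0.796) lay next to each other with overlapping ranges. Siglec1 had its medians within 3.09 to 4.18 CPM in these 4 groups with IL1A, 2.23 CPM with TNF and 2.07 CPM in Sarm1-/- PBS retinas, each range overlapping the next.

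Siglecf was the member that differed by sex. In the day 2 retinas of batch 1 males were lower than females by 0.88 ± 0.20 on the log2 scale (FDR = 0.02065), in a comparison where 0.363% of genes were called. Among PBS retinas 15 from females were at 0.390 to 4.19 CPM (median 2.06) and 16 from males at 0.0829 to 2.90 CPM (median 0.602). Among IL1A retinas 4 from females were at 15.1 to 24.7 CPM and 5 from males at 3.21 to 14.1 CPM, without overlap. With IL1A+TNF the medians were 24.5 and 16.4 CPM and the ranges overlapped. In batch 2 females had the higher median in 3 of 4 groups, while among Sarm1-/- PBS retinas the median was 0.739 CPM in females and 2.05 CPM in males. In that group the neutrophil sum had a median of 17 CPM in females and 102.5 CPM in males.

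Siglece (-0.42 ± 0.12, FDR = 0.1101), Cd33 (-0.43 ± 0.15, FDR = 0.2401), Siglec1 (-0.03 ± 0.19) and Cd22 (-0.06 ± 0.19) were not called by sex. The sum of the neutrophil genes had a median of 25.8 CPM in female and 13.7 CPM in male PBS retinas, and of 249.8 and 97.8 CPM with IL1A. None of the 9 neutrophil genes tested was called by sex, and their median log2 difference was -0.913. Their part in the Siglecf difference was not tested.

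Among the 31 PBS retinas of day 2 in batch 1, the members varied with each other and with the microglia genes to unequal degrees. Of 15 relations computed, the 5 with Siglecf are not given pooled, since its values fell into 20 retinas at or below 0.952 CPM and 11 at or above 2.06 CPM. Of the other 10, 7 had an adjusted permutation p under 0.05. Siglec1 followed the sum of the microglia genes most closely, with Pearson r = 0.805 (adjusted p = 5e-05) and Spearman rho = 0.790 (adjusted p = 7.5e-05), and r = 0.776 without the 2 retinas farthest from the median. Cd33 had r = 0.656 (adjusted p = 0.000225), rho = 0.605 (adjusted p = 0.00101) and r = 0.560 without the 2 retinas. Cd22 had r = 0.569 (adjusted p = 0.00165), rho = 0.572 (adjusted p = 0.00178) and r = 0.551 without them. Siglece had r = 0.152 (adjusted p = 0.413) and rho = 0.212 (adjusted p = 0.252), and r = 0.246 without them.

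Between members, Siglec1 and Cd22 had r = 0.607 (adjusted permutation p = 0.000943) and rho = 0.595 (adjusted p = 0.00101), and r = 0.528 without the 2 farthest retinas. Siglece and Cd33 had r = 0.597 (adjusted p = 0.000943) and rho = 0.684 (adjusted p = 7.5e-05), and r = 0.653 without them. Siglec1 and Cd33 had r = 0.515 (adjusted p = 0.00493) and rho = 0.508 (adjusted p = 0.0063), and r = 0.453 without them. Cd22 and Cd33 had r = 0.401 (adjusted p = 0.0303) and rho = 0.452 (adjusted p = 0.0143), and r = 0.335 without the 2 farthest retinas, where it was no longer past the threshold (adjusted p = 0.0886). Siglec1 and Siglece had r = 0.208 (adjusted permutation p = 0.302) and rho = 0.265 (adjusted p = 0.159), and r = 0.171 without the 2 retinas. Siglece and Cd22 had r = 0.159 (adjusted p = 0.413) and rho = 0.317 (adjusted p = 0.0957). Without the 2 farthest retinas Siglece and Cd22 had r = 0.382 (adjusted p = 0.0557) and rho = 0.480 (adjusted p = 0.0131). All 31 retinas were of 1 batch.

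**Figure D4:**
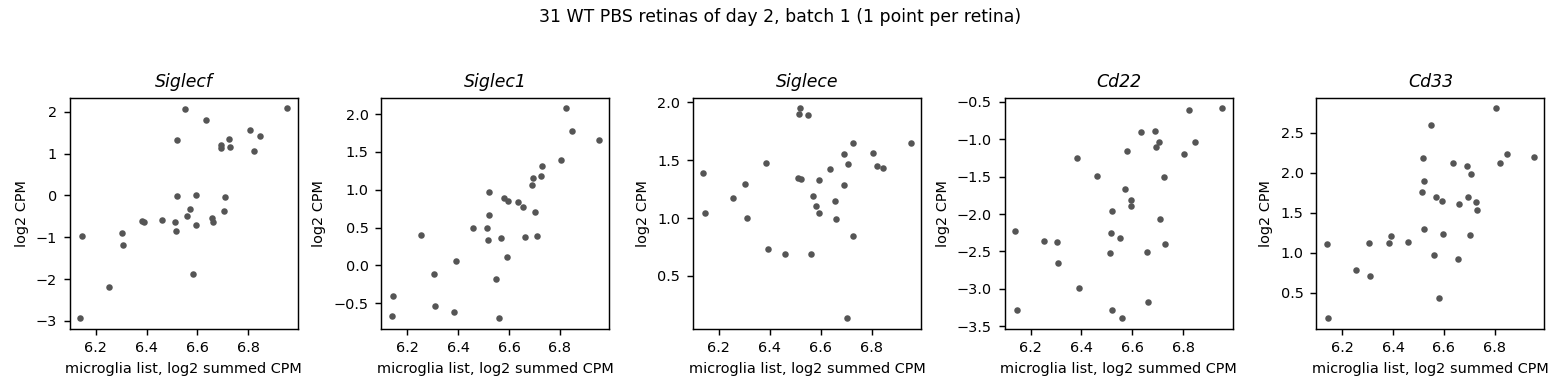
Log2 CPM of each member against the log2 of the summed CPM of 10 microglia genes in the 31 PBS retinas of day 2 in batch 1, with 1 point a retina and axes that differ between panels. Siglec1 follows the sum (r = 0.805), Siglece does not (r = 0.152), and the Siglecf points lie in a lower and a higher group.

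The genes whose centred mean profile over the 12 groups was nearest to each member, by root-mean-square difference in log2 CPM among 19191 genes, differed from member to member. For Siglecf they were Cd101 (0.394), Csf3r (0.438), the receptor for granulocyte colony-stimulating factor, and Cd300lb (0.536). For Siglec1 they were the interferon-induced genes Oas1a (0.156) and Ifi204 (0.178), and H2-DMb1 (0.203). For Siglece they were Glipr1 (0.0886), Alox5ap (0.121) and Il4ra (0.123). For Cd22 they were Aoah (0.290), Nlrp1c-ps (0.317) and Slamf6 (0.321), and for Cd33 they were Cd53 (0.151), Ctse (0.174) and Tyrobp (0.177). By this measure the nearest pair of members was Siglece and Cd22 (0.483), farther apart than each was from its 3 nearest genes. By Pearson r, which sets the size of the changes aside, Siglecf and Siglece had the highest value among pairs of members (0.990), and Siglece and Cd22 had 0.923. The profiles include the retinas that chose the members, so these values are a description.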

How the data were processed

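Poly(A) RNA of whole retinas was sequenced in pairs of reads. The authors aligned reads to mm10 with STAR 2.7.9a and deposited raw counts per gene from featureCounts (Subread 2.0.1), per the labels; the annotation release and strand setting were not given in the sources used here. Of the count columns, 0 matched no sample.

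Groups came from genotype, treatment, time and batch in the labels. Counts were filtered with filterByExpr (minimum count 10, total 15), scaled by TMM and tested with limma 3.58.1 (voom with duplicateCorrelation, mouse as block, sex as covariate, R 4.3.3), with adjusted p under 0.05. Separate fits covered day 2 batch 1, batch 2, both jointly with a batch term for Sarm1-/- against WT and Sarm1-/- treatment, TNF at day 14, and TNF at day 35. PBS retinas of 3 days were fitted together without the block, although 1 mouse gave 2 of the day 14 retinas. Log2 CPM had a prior count of 2. Both eyes of a mouse pair the samples, and the correlation within mice was 0.0515 in day 2 batch 1, -0.0763 in batch 2 and 0.284 at day 14. Correlations over retinas used 100000 permutations, two-sided, adjusted over 15 relations.

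Members and lists were chosen with earlier results of these data known. Genes named were the 5 members, the 4 other Siglecs, the 3 genes with the smallest adjusted p in each direction over the signalling and sialic acid lists, the 2 most abundant genes of each cell list, and the 3 nearest genes per member. Ptpn11 was named after its values were seen, and 2 genes that the rule names are not reported here. Fits were tested on simulated data. Alternatives were DESeq2 1.42.0, edgeR 4.0.16, other size factors, no filter, no sex term, no block, mouse as a fixed factor and batch 2 alone. Single retinas of the groups compared by treatment or genotype were also left out, except the 31 PBS retinas of day 2 in batch 1. No retina was left out for the comparisons of PBS retinas between days or for the comparison of the sexes. The fits without single retinas of the genotype comparisons, and of PBS in the TNF comparisons at days 14 and 35, were added after seeing the data. Depth limits precision for Cd22 and Siglecf at days 14 and 35.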

Additional observations from a re-analysis of the deposited data

Results flagged for a closer look

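Of 55 combinations of member and group of 4 to 10 retinas, 3 held a retina far from the others by Dixon's 95% criterion, and chance gives about 1 in 20. Cd22 in 1 of 6 TNF retinas of day 14 was at 0.684 CPM, with the next at 0.360 CPM. Cd22 in 1 of 9 TNF retinas of day 35 was at 0.347 CPM, with the next at 0.102 CPM. Siglec1 in 1 of 5 WT PBS retinas of batch 2 was at 2.72 CPM, with the next at 1.52 CPM.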

How the results depend on the processing

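Counts of members called stayed the same under 202 alternatives and changed under 8. For Sarm1-/- against WT after IL1A+TNF, 1 member was called (Cd22), and 0 were called in batch 2 alone, with DESeq2 and with edgeR. For PBS at day 35 against day 14, 0 were called, and DESeq2 called 1 (Cd33). The cause was not tested. Leaving out 1 retina at a time gave 0 to 2 members called for Sarm1-/- against WT after IL1A+TNF over 27 fits, which were 22 of the compared groups, chosen after seeing the data, and 5 without a WT PBS retina of batch 2. The call on Cd22 was lost without Sarm1-/- IL1A+TNF replicates 3, 4 or 5. The other ranges were 5 to 5 for IL1A+TNF in WT batch 1 (10 IL1A+TNF retinas left out, none of the PBS retinas) and batch 2 (11 retinas), 4 to 4 in Sarm1-/- (17), and 0 to 0 for Sarm1-/- against WT with PBS (11), the genotype by treatment term (33) and TNF at days 14 (13) and 35 (15). These fits kept the within-mouse correlation of the full fit. With the replicate block as a fixed factor for mouse, the members called were 5, 5 and 4 for IL1A+TNF in WT batch 1, WT batch 2 and Sarm1-/-, and the pairing changed no other call on a member. Over all genes, the genotype by treatment term gave 1763 calls, and 0 in batch 2 alone, 443 with DESeq2, 181 with edgeR, 25 with mouse as a fixed factor and 13 to 2963 when 1 Sarm1-/- IL1A+TNF retina was left out (13 without replicate 4, 34 without replicate 5, 2963 without replicate 1 and 2726 without replicate 2). Sarm1-/- against WT after IL1A+TNF gave 2988 calls, and 129 in batch 2 alone, 1600 with DESeq2, 1195 with edgeR, 263 without Sarm1-/- IL1A+TNF replicate 4 and 364 without replicate 5. Sarm1-/- against WT with PBS gave 8 calls, and 2 in batch 2 alone. IL1A+TNF in batch 2 gave 4110 calls, 2286 with mouse fixed and 2695 without WT PBS batch 2 replicate 4. PBS at day 35 against day 14 gave 823 calls and 1541 with DESeq2, and TNF at day 35 gave 0, 2 with mouse fixed and 3 without PBS day 35 replicate 3.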

Other observations

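The 31 PBS retinas of day 2 in batch 1 included 8 whose other eye is not among the samples analysed here. The other eye of the remaining 23 is in the series and received a cytokine. This split was chosen after the values were seen. What the other eyes of the 8 received is not in the labels. The study's methods describe PBS as the control for a cytokine in the other eye, so the split need not be one of treatment. Siglecf was at 0.599 to 4.19 CPM (median 2.30) in the 8 and at 0.0829 to 4.18 CPM (median 0.614) in the 23. The mean log2 difference was 1.31 (two-sided permutation p = 0.0101, 0.0708 after adjustment over 7 measures). Siglec1 differed by 0.65 (permutation p = 0.0272, adjusted 0.0752), and the sum of the microglia genes by 0.17 (permutation p = 0.0322, adjusted 0.0752). Of the 11 PBS retinas with Siglecf at or above 2.06 CPM, 6 were among the 8 and 5 among the 23, and 8 were from females and 3 from males. Females made up 4 of the 8 and 11 of the 23. The sum of the neutrophil genes had a median of 29.8 CPM in the 8 and 14.0 CPM in the 23, a difference of 0.87 (permutation p = 0.113, adjusted 0.158). Cd33 differed by 0.47 (adjusted permutation p = 0.109), Siglece by 0.19 (0.294) and Cd22 by 0.34 (0.324).

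Within the 20 PBS retinas with the lower Siglecf levels, Siglecf and the sum of the microglia genes had Pearson r = 0.649 (adjusted permutation p = 0.0197) and Spearman rho = 0.624 (adjusted permutation p = 0.0379), the one of 10 such relations past the threshold. Without the 2 retinas farthest from the median it was r = 0.396 (permutation p = 0.105).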
